A study of Bos grunniens with 6 samples.

Results

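Ubiquitin ligases attach the small protein ubiquitin to other proteins, which marks many of them for destruction by the proteasome and changes the activity or location of others. RING type ligases, among them the RNF, TRIM and MARCH families, hold the ubiquitin-carrying enzyme and the substrate side by side, whereas HECT ligases take the ubiquitin onto themselves before passing it on. Cullins are scaffolds for multi-subunit ligases, in which F-box proteins or BTB-Kelch proteins (KLHL and KBTBD) pick the substrate. In the testis, such ligases are known for roles in meiotic recombination, in the silencing of the sex chromosomes and in the remodelling of the spermatid.

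Genes of these families were followed here through the m6A peaks listed for cattle-yak testis and through their expression. Members were chosen by symbol, as every gene with a listed peak whose symbol began with RNF, TRIM, MARCH, HERC, HECT, HECW, UBR, NEDD4, ITCH, WWP, HUWE1, CUL, FBX, KLHL or KBTBD in the forms used for these families. They were 181 of the 8986 gene identifiers with a peak, under 164 symbols, and held 326 of the 16186 peaks. The rule used names only, but a gene could enter only if it carried a peak.

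The cattle-yak is the hybrid of cattle and yak, whose males are sterile. In the study's stained sections, germ cells were mainly a single layer of spermatogonia, with few spermatocytes. Its discussion names only Sertoli cells and spermatogonia in the tubules. Testes of 3 healthy males aged 5 years (TES5, TES6 and TES7) had been removed by castration, and each gave an IP library of fragments bound by an m6A antibody and an input library of the same poly(A) RNA before binding, 6 libraries in all. All animals belong to 1 condition, so the members are described against the other genes of the same tissue and no treatment is compared. Peaks form 1 list for the group, with no score and no value per animal, while FPKM (sequenced fragments scaled by transcript length and library depth) was listed for each input library. Since FPKM is scaled by length, levels may be compared between genes. In whole tissue, fewer cells of a type and less RNA per cell cannot be told apart.

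Symbols were known only for genes with a peak, so markers of testis cells could be read only where they carried one. Of 39 markers 21 did. The Sertoli marker SOX9 stood at 26.7 to 28.4 FPKM and the Leydig marker STAR at 100.2 to 111.9 FPKM over the 3 animals. The spermatocyte marker SYCP3 stood at 18.0 to 24.4 FPKM. Its mean of 20.7 FPKM was the highest among the 9 identifiers of the 4 spermatocyte markers with a peak. The median of their means was 4.36 FPKM and the lowest was 0. For the 3 spermatogonial markers with a peak the median was 8.85 FPKM, and GFRA1 was the lowest at 0.79 FPKM. The protamine and transition protein genes PRM1, PRM2, TNP1 and TNP2, which define late spermatids, had no listed peak and were not analysed here.

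The names were checked against the gene ontology (GO) terms in the peak list. A term naming ubiquitin was given for 88 of the 161 members with any GO term, 54.7% (95% Wilson interval 46.9% to 62.2%), against 6.27% of the 7944 genes with a peak and GO terms. Intervals here and below cover counting error only. The term was thus listed for many members but not for each, and a missing term does not show that a name is wrong. HUWE1, NEDD4L, CUL3, FBXW7, HERC4 and RNF17 carried instead a GO term for RNA-directed DNA polymerase, an enzyme that mobile elements encode. That term was given for 26 members, 16.1%, and for 16.7% of all genes with a peak and GO terms.

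Peaks of the members were classed mostly as exon, less often as untranslated region (UTR) (the plot of peak classes by family). Each peak carries a single class, whatever its width, so a wide UTR peak may also cover exons. Exons took 254 of the 326 peaks, 77.9% (73.1% to 82.1%), against 70.3% of all listed peaks. The 3' UTR took 47 member peaks, 14.4% (11.02% to 18.6%), against 20.8% of all peaks. For the 5' UTR the count was 25, or 7.67% (5.25% to 11.1%), close to 8.82% of all peaks. The member interval for the 3' UTR ended below the share of all peaks. Among peaks of at most 1000 bp the 3' UTR share was 20.5% (15.0% to 27.4%) for members and 28.1% for all.

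**Figure D1:**
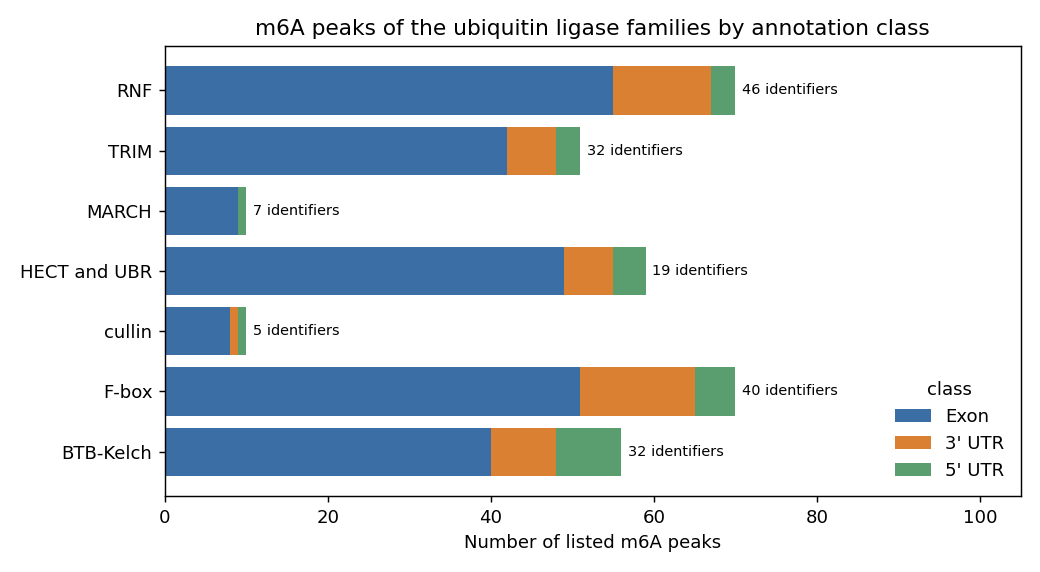
Number of listed m6A peaks (horizontal axis) in each family, divided by the annotation class of the peak, with the number of gene identifiers beside each bar. Exon peaks are the largest class in each family, and the 19 HECT and UBR identifiers hold 59 peaks, more than the 51 of the 32 TRIM identifiers.

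Families differed in peak number and in gene span, taken as the longest listed transcript with its introns. HECT and UBR genes, which encode very large proteins, held 3.11 peaks per identifier over 19 identifiers, with a median gene span of 159293 bp. RNF genes held 1.52 peaks per identifier over 46 identifiers and TRIM genes 1.59 over 32, with median spans of 26136.5 bp and 16090.5 bp. The MARCH family (7 identifiers) held 1.43, the cullins (5) 2.0, and the F-box (40) and BTB-Kelch (32) genes 1.75 each. Across all members the median span was 20898.5 bp for the 90 with 1 peak, 25469.5 bp for the 62 with 2 and 106052 bp for the 29 with at least 3. A single peak was listed for 49.7% of the members (42.5% to 56.9%), against 54% of all genes with a peak. Whether span accounts for the difference between families was not tested.

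HERC1, a giant HECT protein of the Golgi and cytoplasm, had 7 exon peaks from exon 1 to exon 46 of 80, at chr11:32701682-32881578 on the plus strand (LU_Bosgru_v3.0, the build of all coordinates here). Its FPKM was 6.44, 8.31 and 7.42 in TES5, TES6 and TES7. HECTD4 had 6 peaks, 5 of them in exons 22 to 63 of 77 and 1 in a 5' UTR, at 5.44, 6.57 and 6.37 FPKM. HUWE1, an X-linked HECT ligase that acts on p53, MCL1 and histones, had 5 exon peaks between exons 32 and 72 of 85 at chrX:98616053-98790516. It was lower in TES5 (16.4 FPKM) than in TES6 (23.0) and TES7 (23.97).

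**Figure D2:**
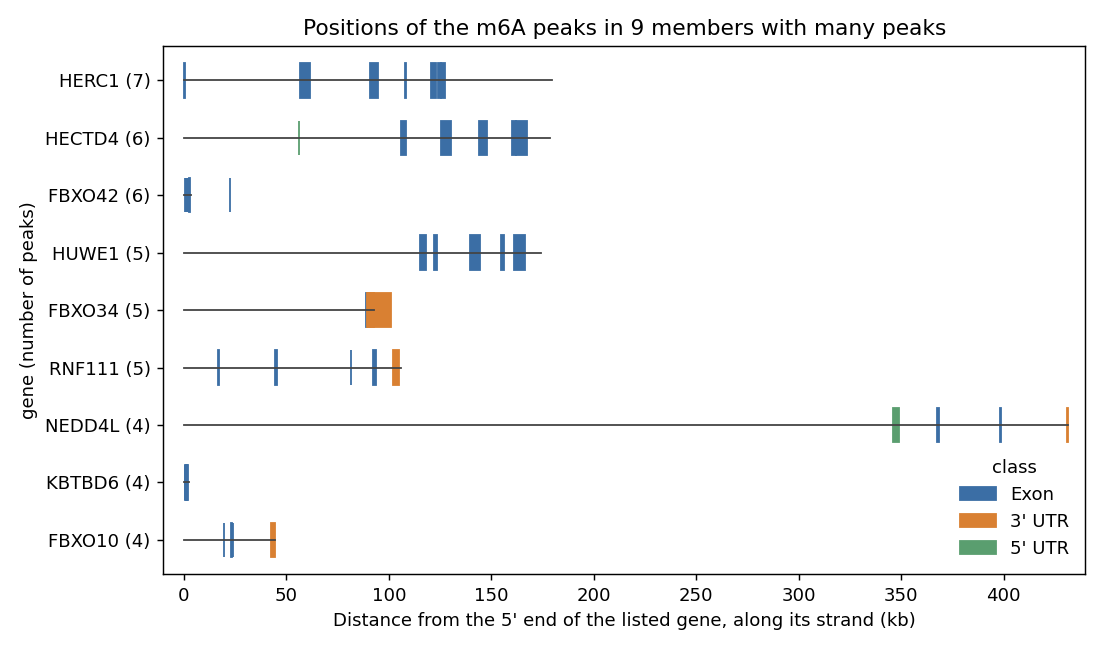
Peaks (coloured by class, drawn to scale with a thin outline) along the longest listed transcript (line) of 9 members with many peaks, as distance in kb from its 5' end. The peaks of HERC1 and HECTD4 are spread over several exons, those of HUWE1 all lie in the 3' part of the gene, those of FBXO34 crowd at its 3' end and 1 peak of FBXO42 lies off the line.

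Other members with many peaks had them close together. FBXO34, an F-box protein, had 5 peaks, 1 in exon 2 and 4 in the 3' UTR, and they became 1 stretch when peaks within 100 bp were merged. The 4 exon peaks of TRIM71 (LIN41, an RNA-binding TRIM protein of early development and germ cells) also merged into 1. KBTBD6, a CUL3 adaptor, went from 4 peaks to 2. NEDD4L, known for removing the epithelial sodium channel from the membrane, was the 1 member with peaks in all 3 classes, with 4 peaks at 5.96 to 6.32 FPKM. RNF111 (Arkadia), which removes inhibitors of TGF-beta signalling, had 5 peaks, 3 of them in exons 2, 6 and 8 of 14, 1 in the 3' UTR and 1 on an exon of another listed transcript.

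UBR2, a ligase of the N-degron pathway needed for male meiosis in mice, had 3 peaks, all in the 3' UTR. Its FPKM was 6.28, 6.83 and 6.83. Of the members, 14 had peaks of the 3' UTR class only, 10 of the 5' UTR class only and 122 of the exon class only. The same counts were not made over all genes with a peak, so whether these are unusual is not known. FBXO8, FBXW7 and one identifier of KBTBD11 (ENSBGRG00000008855) had peaks of both UTR classes and none of the exon class. FBXW7, which targets cyclin E and MYC, combined a 3' UTR peak of 348 bp with a 5' UTR peak of 40200 bp.

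Listed widths run along the genome with introns included, and some members had peaks that cover most of a gene. The median width was 1049 bp over member peaks and 1022 bp over all peaks. In the 5' UTR class the member median was 7184 bp (all peaks 1985 bp), in the 3' UTR class 351 bp (all peaks 447 bp). The widest member peak, in FBXL17, was 211629 bp of a gene spanning 583379 bp. TRIM44 followed with 71711 bp of 72722 bp, then KBTBD3 with 65990 bp. FBXO25 had 55170 bp of 58219 bp and MARCHF8 49763 bp of 58238 bp. Only the first 4 exceeded 50000 bp, 1.23% of member peaks against 2.17% of all peaks. The KBTBD3 peak ran from -65917 to 72 bp relative to the start of a 6275 bp transcript, so it lay mostly outside that transcript.

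Symbols of these families without a listed peak were counted from RefSeq names, which belong to another assembly than the peaks and match 159 of the 164 member symbols, so the shares are approximate. RefSeq held 279 protein-coding symbols of the rule, of which 159 had a peak here, while over all RefSeq protein-coding symbols the share was 45.2%. By family it was 18 of 24 for HECT and UBR, 7 of 10 for MARCH, 37 of 61 for F-box, 26 of 44 for BTB-Kelch, 42 of 80 for RNF, 25 of 52 for TRIM and 4 of 8 for the cullins. The Wilson intervals of the 7 families overlapped, from 21.5% to 78.5% for the cullins and from 55.1% to 88.0% for HECT and UBR. Symbols with no listed peak included CUL1, CUL2, CUL4B, ITCH, HERC2, UBR1 and TRIM28 (a corepressor of mobile elements). A symbol missing here may belong to one of the 211 peak identifiers that carry none.

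Nearly all members were expressed in every animal, as were most genes with a peak, which are the base here since members were drawn from them. FPKM was at least 1 in each input library for 167 of 181 members, 92.3% (87.4% to 95.3%), against 86.9% of genes with a peak and 54.4% of all genes listed. The median of the mean FPKM was 8.67 for members (quartiles 3.50 and 16.04) and 7.36 for genes with a peak. The median coefficient of variation between animals was 10.9% for members and 11.6% for genes with a peak. Family medians were close together for RNF (10.1 FPKM), HECT and UBR (9.45), MARCH (9.43), F-box (8.43), BTB-Kelch (8.30) and TRIM (6.94), and higher for the 5 cullin identifiers (22.8), as the plot of levels by family shows.

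**Figure D3:**
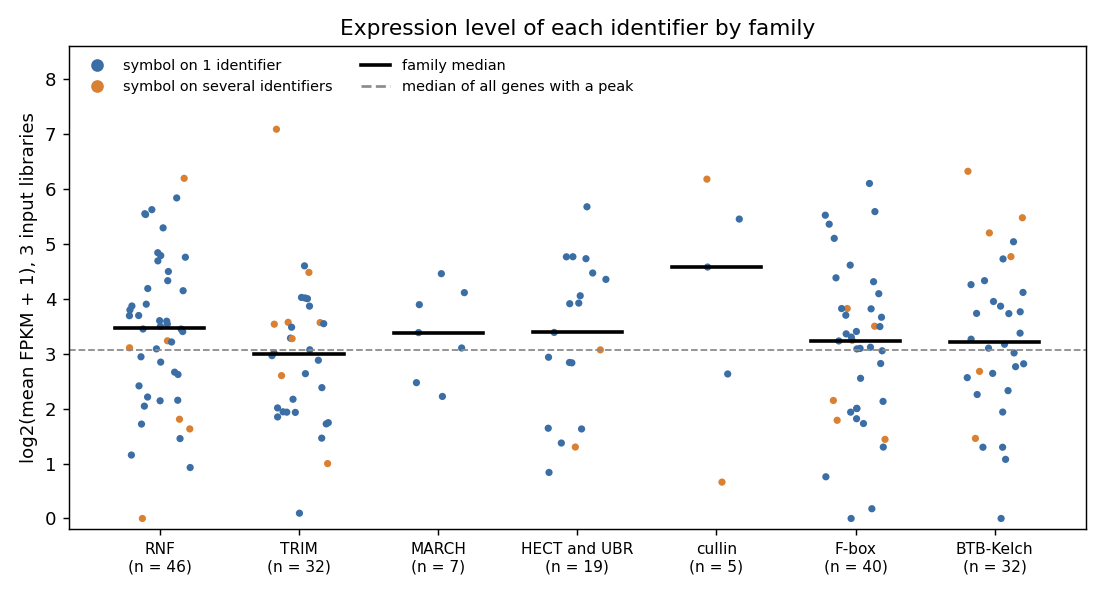
log2(mean FPKM + 1) over the 3 input libraries for each of the 181 identifiers (points), with the family median (black line) and the median of all genes with a peak (dashed line). Families overlap over most of their range, and many of the highest points, such as TRIM7 at 134.67 FPKM, carry a symbol listed for several identifiers (orange).

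Among RING type members on 1 identifier, RNF11, an adaptor of ligases in NF-kappaB signalling, was the highest at 56.0 ± 6.98 FPKM (SD, n = 3). Its levels were 48.1, 58.6 and 61.3. RNF25 stood at 52.9, 45.3 and 46.4 FPKM, and RNF14, a coactivator of the androgen receptor, at 45.3, 45.3 and 46.7. RNF4, which binds SUMO-modified proteins, stood at 45.3 ± 1.87 FPKM (SD, n = 3). Neighbours in this order overlapped between animals, while RNF11 lay above RNF14 in each of them. RNF11, RNF25 and RNF14 each had 1 peak, in an exon. In the MARCH family MARCHF7, a ligase of the developing spermatid, was highest at 17.9, 21.3 and 23.6 FPKM, with 2 peaks in exon 4.

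NEDD4, the founder of its family of HECT ligases, stood at 1.83, 2.19 and 2.35 FPKM with 1 exon peak. Of the cullin scaffolds, CUL3, which works with BTB-Kelch receptors, stood at 49.8, 39.2 and 39.1 FPKM, highest in TES5. Its 3 peaks were a 5' UTR peak of 41576 bp and exon peaks of 4225 bp and 11628 bp. CUL7 stood at 19.3, 22.4 and 26.8 FPKM and CUL5 at 4.79 to 5.73. Of the F-box receptors, FBXO21 reached 60.6, 66.8 and 75.03 FPKM with 2 exon peaks. FBXL5, the iron-sensing receptor that targets IRP2, stood at 46.6, 45.6 and 48.8, a range narrower than that of FBXO21.

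At the other end, 8 members (4.42%) stayed under 1 FPKM in every library, against 7.72% of genes with a peak. FBXO7, KLHL20 and one identifier of RNF168 were listed at 0 in all 3, as were 0.934% of genes with a peak. Each of these had a single peak wide enough to contain its whole listed transcript, for example a peak of 6010 bp over the 493 bp transcript of FBXO7. That FBXO7 peak was placed on an exon of another transcript. The RNF168 identifier (ENSBGRG00000018793) was listed with RNA-directed DNA polymerase and not with ubiquitin. TRIM17 stood at 0.134, 0.0459 and 0.0257 FPKM, 640 bp from TRIM11, which stood at 6.17, 7.53 and 7.55. FBXL13 stood at 0.250, 0.0199 and 0.123 FPKM, and 1 of its 2 peaks was placed on an exon of another transcript. Over all members, 8 of 254 exon peaks (3.15%) were placed on an exon of another identifier or of a transcript without one, against 4.83% of all exon peaks.

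Several symbols stood for more than 1 identifier. There were 13 such symbols on 30 identifiers, 7.93% of member symbols against 9.84% of all symbols with a peak. The identifiers of each symbol lay on 1 chromosome within 23312 to 396453 bp, and for 8 symbols they lay on both strands. Which of them is the named gene was not tested, and the levels differed widely within a symbol (the plot of shared symbols).

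**Figure D4:**
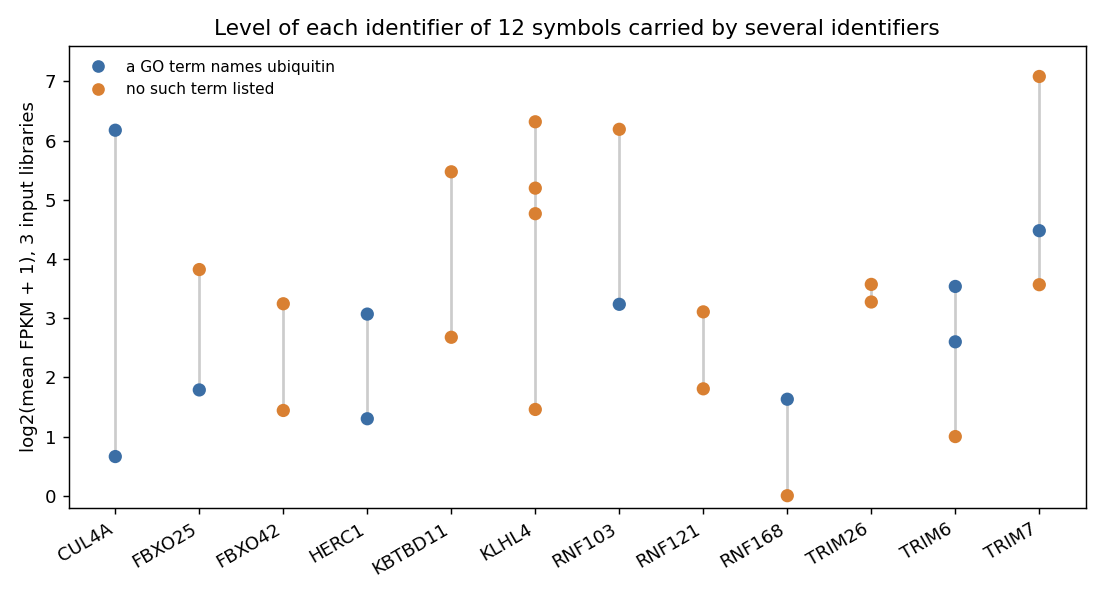
log2(mean FPKM + 1) over the 3 input libraries for each identifier (points) of 12 symbols carried by several identifiers, coloured by whether a GO term names ubiquitin. The widest gap is at CUL4A, from 0.582 to 71.3 FPKM, and the narrowest at TRIM26, from 8.67 to 10.9 FPKM.

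CUL4A, the scaffold of the DDB1 ligases and needed for male meiosis in mice, was listed for ENSBGRG00000015961 at 66.3, 73.3 and 74.2 FPKM and for ENSBGRG00000016213 at 0.464, 0.738 and 0.543. The spans of the 2 overlap on opposite strands, and the first GO terms listed are the same for both. The highest level of any member, 143, 126 and 135 FPKM, belonged to ENSBGRG00000013560, 1 of 3 identifiers named TRIM7. No ubiquitin term was listed for that identifier. The others named TRIM7 had means of 21.3 FPKM, with a ubiquitin term, and 10.8 FPKM. The latter was listed with antigen presentation by MHC class I and not with ubiquitin. KLHL4 was named for 4 identifiers between 1.75 and 78.8 FPKM on chromosome X, none with a ubiquitin term. Those at 1.75 and 78.8 FPKM were listed with RNA-directed DNA polymerase. RNF103, a ligase of the endoplasmic reticulum, was named for ENSBGRG00000018684 at 72.1 FPKM with no ubiquitin term and for ENSBGRG00000018613 at 8.41 FPKM with one. Of the 4 highest members, all 4 carried a symbol of this kind, so their names are uncertain.

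Members known from male germ cells were looked up in a list of 42 symbols (3 of them older MARCH names). Peaks were listed for 25 symbols on 27 identifiers, 49 peaks in all, with a median of the mean FPKM of 5.33, against 8.67 over all members. Over all RefSeq protein-coding symbols, 45.2% had a listed peak. RNF8 and RNF168 mark chromatin with ubiquitin at DNA breaks and on the sex chromosomes in meiosis. RNF8 had a 3' UTR peak and an exon peak at 6.45, 4.66 and 4.89 FPKM, while RNF168 (ENSBGRG00000018769) had 1 peak in its last exon at 1.68, 2.39 and 2.21. RNF20 and RNF40, which together ubiquitinate histone H2B, had 3 peaks each, at 6.19 ± 0.282 and 16.7 ± 0.441 FPKM (SD, n = 3). RNF2, the Polycomb ligase for histone H2A, had 1 exon peak at 17.2, 22.6 and 17.5 FPKM.

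Among genes of meiotic progress, RNF212B, a crossover factor, had 1 peak, in the 3' UTR, at 2.36, 3.34 and 3.68 FPKM. FBXO47 had 1 exon peak at 8.27, 6.13 and 8.62. HERC4, needed for normal sperm in mice, had 1 exon peak at 13.4, 17.6 and 15.8 FPKM. RNF17, a Tudor protein of germ cell granules and spermatid development, had 3 exon peaks at 13.3, 11.8 and 8.02 FPKM, lowest in TES7. TRIM36, a protein of the acrosome, had a single 3' UTR peak of 247 bp at 2.94, 2.00 and 2.11 FPKM. KLHL10, RNF212, RNF151, FBXO24 and TRIM42 had no listed peak.

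A few members differed between animals. Of the 171 members with a mean FPKM of at least 1, 7 (4.09%) were at least 2 times higher in TES5 than in TES7, against 3.09% of genes with a peak, and 1 (0.585%) was at least 2 times higher in TES7, against 0.82%. The share of members was thus near the background in both directions, and 3 animals allow no test. The highest library was TES7 for 77 members (45.03%), TES5 for 48 (28.1%) and TES6 for 46 (26.9%). Over the 7925 genes with a peak and the same mean the shares were 34.2%, 36.2% and 29.6%, and members share libraries, so the difference was not tested.

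**Figure D5:**
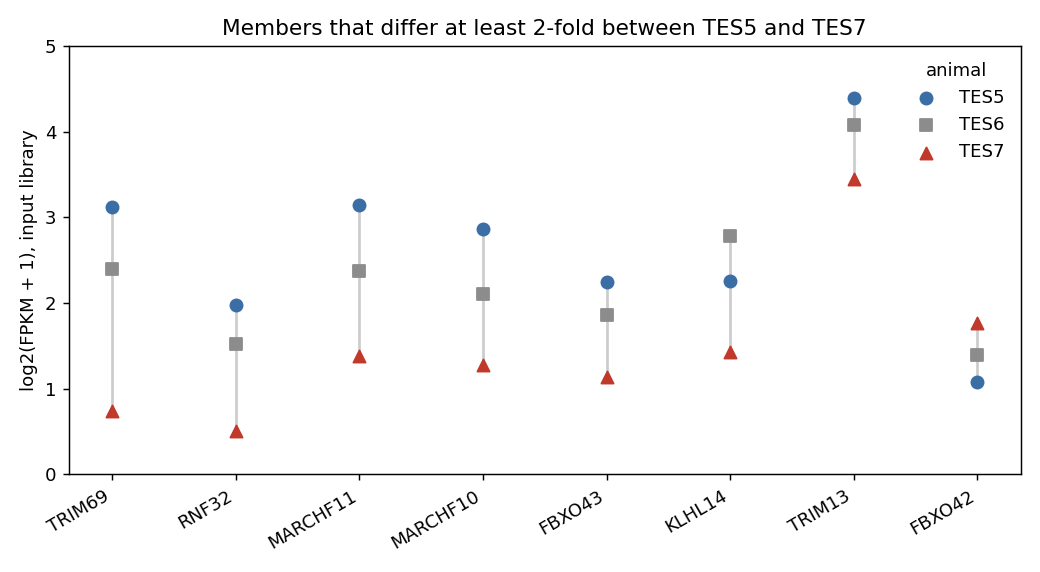
log2(FPKM + 1) in the input library of each animal for the 8 members that differ at least 2-fold between TES5 and TES7. For TRIM69, RNF32, MARCHF11, MARCHF10, FBXO43 and TRIM13 the order is TES5, TES6, TES7 from high to low. For FBXO42 (ENSBGRG00000002342) it is the opposite.

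TRIM69, known from haploid germ cells, showed the widest gap, at 7.68, 4.28 and 0.675 FPKM in TES5, TES6 and TES7, 11.4 times higher in TES5 than in TES7. RNF32 followed at 2.94, 1.87 and 0.416 FPKM. MARCHF11 and MARCHF10, both known from spermatids, stood at 7.85, 4.19 and 1.60 and at 6.27, 3.30 and 1.42 FPKM. The study did not report spermatids in its sections. FBXO43 (EMI2), an inhibitor of the anaphase-promoting complex in meiosis, stood at 3.75, 2.62 and 1.19 FPKM. In these 5 genes TES6 lay between the other animals. TRIM13, of the endoplasmic reticulum, stood at 19.97, 15.9 and 9.92 FPKM, whereas KLHL14 was highest in TES6, at 3.79, 5.86 and 1.68. One identifier of FBXO42 (ENSBGRG00000002342) went the other way, at 1.11, 1.64 and 2.39 FPKM. It was listed with RNA-directed DNA polymerase and not with ubiquitin, so its name is uncertain. The other FBXO42 identifier (ENSBGRG00000002321) stood at 8.41, 7.24 and 9.76 FPKM.

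Marker levels are set beside these genes. The spermatid marker TSSK1B stood at 1.79, 1.27 and 0.179 FPKM on one identifier and at 14.2, 13.1 and 12.7 on the other. It was the 1 of 6 spermatid markers with a listed peak, and the summed level of its identifiers was 15.99, 14.4 and 12.9 FPKM. The summed level of the 4 spermatocyte markers of 5 with a peak was 67.5, 45.3 and 50.0 FPKM, and that of the 3 spermatogonial markers of 7 was 15.8, 18.9 and 24.2. For the 2 Sertoli markers of 6 with a peak the sum was 50.8, 60.8 and 59.9 FPKM. For the 4 peritubular myoid markers it was 287, 326 and 299. The 3 macrophage markers summed to 11.7, 12.8 and 14.5 FPKM, and the 3 endothelial markers to 7.83, 8.59 and 6.71. The part of germ cell or somatic cell content in the differences between animals was not tested.

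Large coefficients of variation among members with a mean of at least 5 FPKM were those of TRIM21, TRIM13, TRIM39 and TRIM8. TRIM21, a cytosolic receptor for antibodies, stood at 9.88, 5.06 and 11.2 FPKM, so that TES6 was the low animal. TRIM39 was highest in TES5, at 19.3, 14.9 and 10.8 FPKM, and TRIM8 was lowest there, at 7.35, 11.4 and 13.2. The low and the high animal thus differed from gene to gene.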

How the data were processed

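MeRIP-seq peaks and input expression were taken as deposited. Per the study's methods and the submitters' processing notes, reads were trimmed (Trimmomatic), cleared of ribosomal RNA (SortMeRNA) and aligned to LU_Bosgru_v3.0 (Ensembl release 99) with HISAT2 2.0.4. The authors called peaks with MeTDiff (fragment length 200, peak p-value cutoff 0.01, FDR cutoff 0.05, screening p-value 0.05, fold at least 1.5) and annotated them with ChIPseeker. FPKM was deposited by the authors for the 3 input libraries, and the program behind it is not given in the sources used here. The paper gives the amount of clean sequence per sample. FPKM keeps no read numbers, and low values showed no whole-read steps, so no interval or detection limit is given for a level. FPKM sums ran from 280940 to 302365 per library.

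Peaks, classes, widths and exons were counted, shares given with Wilson 95% intervals, and means and SDs computed over 3 animals with pandas 2.3.3 and numpy 2.4.6 under Python 3.11.15, with SciPy 1.17.1 for intervals and matplotlib 3.10.9 for plots. The procedures were tested on simulated data. RefSeq symbols served for names only. No genome of this build was used, so no sequences or motifs were analysed.

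Named were the 10 members with the most peaks, the 10 with the highest mean FPKM, the 5 most variable with a mean FPKM of at least 5, the top members of each family, the germ cell list, the 5 widest peaks and the lowest members. RNF32, KLHL14, TRIM11, CUL5, CUL7, FBXO8, members sharing a symbol and symbols without a peak were named after their values were seen. Some named members are not reported here. Members and lists were chosen with earlier results of these data known.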

Additional observations from a re-analysis of the deposited data

How the results depend on the processing

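The class shares of the members' peaks depended on how peaks were counted. Weighted by width, exons took 72.6%, the 3' UTR 4.08% and the 5' UTR 23.3%. Among peaks of at most 1000 bp the 3' UTR took 20.5% and the 5' UTR 4.97%. With members of at least 1 FPKM in every library only, the median of the mean FPKM was 9.57. Merging peaks within 100 bp took FBXO34 from 5 to 1, TRIM71 from 4 to 1 and KBTBD6 from 4 to 2, and 6 of 58 named identifiers had fewer peaks. With a pseudocount of 0.1 in place of 1, the median SD of log2 FPKM went from 0.14 to 0.15. Without 1 animal at a time, the number of members with at least 1 FPKM in every library was 167 to 169 and the median of the mean FPKM over all members 8.55 to 8.82. Counts of peaks, identifiers and 2-fold members moved by less than 1.5 times under the alternatives tried, of which those with symbols on 1 identifier, and those with rescaled libraries or at least 1 FPKM in every library for the 2-fold counts, were chosen after seeing the data. No paired analysis was possible because the peaks form 1 list for the group and FPKM was listed for input libraries only. FPKM keeps no read numbers per gene, so no detection limit can be given.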

Other observations

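Other genes of the ubiquitin pathway, outside the families above, were looked up in a list of 114 symbols. Of these, 75 had a peak, on 85 identifiers with 147 peaks, while over all RefSeq protein-coding symbols 45.2% had one. In every library 84 identifiers reached at least 1 FPKM, all but TRAIP, a ligase of DNA replication, at 0.842, 1.09 and 0.971 FPKM. The median of their mean FPKM was 11.2, against 8.67 for the members. Of 10 other HECT ligases, 8 had a peak. TRIP12 had 3 peaks at 59.3, 66.3 and 63.1 FPKM, and UBE3A, the ligase of Angelman syndrome, had 4 at 10.98, 13.95 and 10.7. BIRC6, a giant inhibitor of apoptosis, had 8 peaks at 6.63, 9.50 and 9.39 FPKM. UHRF1, which binds hemimethylated DNA, had 4 peaks at 11.9, 12.1 and 12.4.

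Of 24 partners and regulators of the cullins, 9 had a listed peak, and of 18 other cullin receptors 14 did. These lists are short, and differences between them or from the share over all symbols were not tested. The core subunits SKP1, RBX1, ELOB and DDB1 and the modifier NEDD8 had none, while CAND1, which exchanges the substrate receptors, had 3 peaks at 40.6, 43.0 and 45.4 FPKM. DCAF1, a receptor of CUL4, had 4 peaks at 15.3, 16.4 and 19.3. In the anaphase-promoting complex, the ligase of mitotic and meiotic exit, 8 of 13 had a peak, and its activator FZR1 stood at 21.5, 18.3 and 16.8 FPKM. STUB1, the U-box ligase that works with chaperones, was the highest of the list at 74.8, 71.8 and 67.9 FPKM with 1 peak. ARIH1 was named for ENSBGRG00000011895 at 17.2, 18.2 and 18.3 FPKM and for ENSBGRG00000012255 at 7.05, 5.01 and 1.39 FPKM, the latter lowest in TES7.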
